A study of Mus musculus with 4 samples.

Results

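The 10 genes described here encode R-spondin receptors and the ubiquitin ligases paired with them, or are Wnt targets of crypt base cells. The genes are Lgr5, Lgr4, Znrf3, Rnf43, Axin2, Nkd1, Tnfrsf19, Ascl2, Myc and Sox9. They were taken by symbol from a table of 18436 genes, and all 10 were found and passed the filter on low values, which 12621 genes passed in all. RNA came from cells sorted for bright green fluorescence from the intestinal crypts of 4 C57BL/6 mice. The 2 control mice (Lgr5-CREPTWT, labelled Lgr5) carried the Lgr5-GFP-CreERT2 allele, in which the Lgr5 gene drives GFP and a Cre recombinase that tamoxifen activates. The 2 knockout mice (Lgr5-CREPTKO, labelled Lgr5KO) carried that allele together with CREPT fl/fl, a conditional allele of Rprd1b, the gene of the CREPT protein, which binds RNA polymerase II and takes part in transcription. All 4 mice received tamoxifen intraperitoneally at 1 mg a day for 5 days, and cells were sorted on day 7. By the study's methods, animals of both sexes aged 6 to 8 weeks were used, and the sex of each of the 4 mice is not given in the sources used here. The GFP allele is silent in a part of the crypts, whose stem cells the gate leaves out, and since GFP is read from the Lgr5 locus, the gate selects on the activity of a gene that is also one of the 10.

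Crypt base columnar cells are the cycling stem cells of the intestine and depend on Wnt ligands and R-spondins. Wnt ligands bind Frizzled receptors with LRP co-receptors, which stabilises β-catenin and lets it activate genes together with TCF factors. RNF43 and ZNRF3 remove Frizzled receptors from the cell surface, and R-spondins, bound to LGR4 or LGR5, block these ligases. Several of the genes that β-catenin activates, Axin2, Nkd1, Rnf43 and Znrf3 among them, encode inhibitors of the pathway and so form a negative feedback. The data address whether this circuit differed at the RNA level in sorted Lgr5-GFP cells of mice given tamoxifen to delete CREPT.

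Values are FPKM, fragment counts divided by transcript length and by library size. This allows a rough comparison of levels between genes, while a comparison between mice also depends on how the libraries are scaled. The totals over all genes were between 468830 and 499327 FPKM per mouse. The table holds no read counts. In short RNA genes, where 1 read moves the value by a visible step, the step relative to that in Lgr5-CREPTWT mouse 1 had a median of 0.986, 0.993 and 1.03 in the other 3 libraries, over 9 to 11 transcript lengths each. A larger step goes with a smaller library, since FPKM divides by library size. Single lengths gave ratios from 0.333 to 9.67, so these medians are only a rough and inverse guide to relative depth. Rprd1b, on chromosome 2 from 158028475 to 158078207, was at 17.69 and 18.09 FPKM in Lgr5-CREPTWT mice and at 6.65 and 7.36 FPKM in Lgr5-CREPTKO mice, and its log2 fold change was -1.29 (SE 0.0946, adjusted p = 0.0280, limma). This value covers the whole gene and does not give the share of cells in which the allele recombined. The span of an antisense gene in the table, 2010009K17Rik, introns included, crosses at least 1 exon of Rprd1b. 2010009K17Rik had a log2 fold change of -1.15 (adjusted p = 0.0954, limma). The strand setting of the counting is not given in the sources used here. Of the genes that mark stem cells, Olfm4 was between 4932 and 5351 FPKM in the 4 mice and Smoc2 between 169.0 and 202.3 FPKM. The 5 epithelial markers summed to between 2365 and 2694 FPKM. Among them Epcam was between 665.5 and 739.8 FPKM, while Vil1, the gene of villin, was at 170.6 and 182.1 FPKM in Lgr5-CREPTWT mice and at 87.1 and 118.8 FPKM in Lgr5-CREPTKO mice (log2 fold change -0.79, adjusted p = 0.0689, limma). The 5 stromal and endothelial markers summed to at most 0.37 FPKM in any mouse.

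None of the 10 genes passed an adjusted p of 0.05 by limma's moderated test, against 3.08% of all genes tested (2.67% lower and 0.412% higher), and none passed that threshold together with an absolute log2 fold change above 1, against 1.14%. At an unadjusted p below 0.05, 5 of the 10 were higher and 0 lower, where 9.27% of all genes were higher and 24.5% differed in either direction. Lgr5, Znrf3, Rnf43, Axin2, Ascl2 and Myc, 6 of the 10, had both Lgr5-CREPTKO values above both Lgr5-CREPTWT values, which held for 25.6% of all genes, and no member had both below, which held for 31.0%. The median log2 fold change was 0.20 over the 10 genes and -0.01 over all genes tested. The 10 log2 fold changes ran from -0.05 to 0.43 and their standard errors from 0.0702 to 0.141. The 95% intervals of all 10 lay between -0.35 and 0.76 on the log2 scale, so that for each of these genes a change of 2-fold or more in either direction was outside the interval. With 2 mice per genotype an exact two-sided permutation test of a single gene cannot give a p below 0.333, so the tests depend on limma pooling the variance of all genes.

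**Figure D1:**
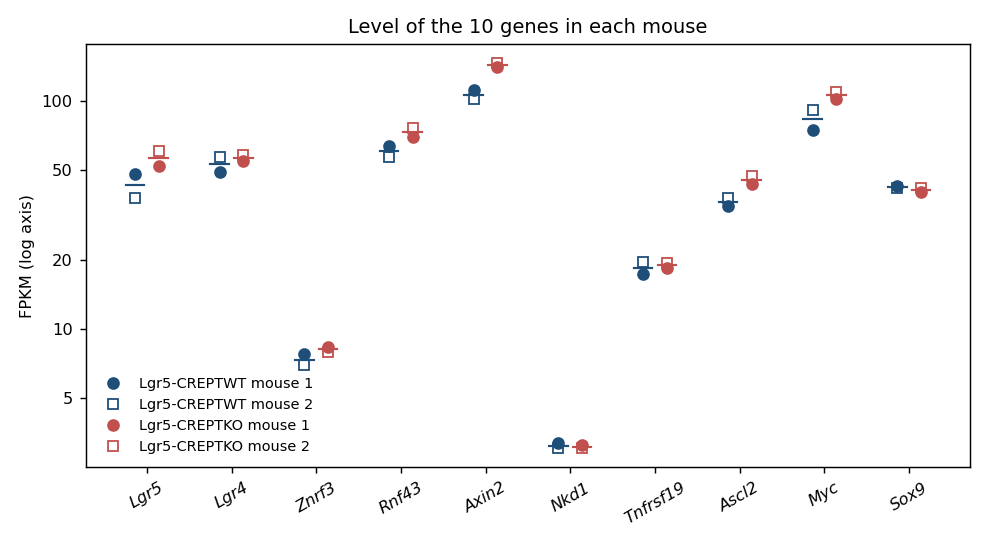
FPKM (log axis) of the 10 genes in each of the 4 mice, with a short line at the mean of each genotype. Axin2 was the highest of the 10 in each mouse and Nkd1 the lowest, and the genotypes did not overlap in Lgr5, Znrf3, Rnf43, Axin2, Ascl2 and Myc.

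By mean level, the 5 highest and the 3 lowest of the 10 genes came in the same order in both genotypes. In Lgr5-CREPTWT mice the order of the means was Axin2 (106.5 FPKM), Myc (82.9), Rnf43 (60.3), Lgr4 (52.8), Lgr5 (42.7), Sox9 (42.0), Ascl2 (36.1), Tnfrsf19 (18.5), Znrf3 (7.36) and Nkd1 (3.09). Lgr5 and Sox9 were the only neighbours in this order whose values overlapped between the mice. In Lgr5-CREPTKO mice the order was Axin2 (143.5 FPKM), Myc (105.5), Rnf43 (72.8), Lgr4 (56.2), Lgr5 (56.1), Ascl2 (45.0), Sox9 (40.7), Tnfrsf19 (19.0), Znrf3 (8.16) and Nkd1 (3.06). Here Lgr4 and Lgr5 overlapped, and Ascl2 stood above Sox9 rather than below it. Against all genes tested, the mean of Axin2 over the 4 mice was at percentile 95.6, that of Lgr5 at 87.2, that of Znrf3 at 38.4 and that of Nkd1 at 20.8.

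Lgr5 encodes the R-spondin receptor that marks crypt base columnar cells. It lies on the minus strand of chromosome 10 from 115450314 to 115587780 (GRCm38.p6), with 18 exons in its longest coding transcript. Lgr5 was at 47.67 and 37.70 FPKM in Lgr5-CREPTWT mice and at 52.04 and 60.10 FPKM in Lgr5-CREPTKO mice. Both knockout mice were above both controls, but the controls differed from each other by more than the higher control differed from the lower knockout. The means were 42.7 ± 7.05 and 56.1 ± 5.70 FPKM (SD, n = 2 each), and the log2 fold change was 0.40 (SE 0.141, adjusted p = 0.176, limma), with a 95% interval from 0.03 to 0.76. Its standard error was the largest of the 10. Among all genes tested, 6.91% had a larger log2 fold change. When each mouse was left out in turn, the log2 fold change ran from 0.23 without Lgr5-CREPTWT mouse 2 to 0.56 without Lgr5-CREPTWT mouse 1.

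Lgr4, on chromosome 2 from 109917647 to 110014257, encodes the R-spondin receptor that is expressed widely through the crypt. Its values were 48.81 and 56.86 FPKM in Lgr5-CREPTWT mice and 54.66 and 57.65 FPKM in Lgr5-CREPTKO mice. The genotypes overlapped, and the log2 fold change was 0.09 (SE 0.0977, adjusted p = 0.616, limma), with a 95% interval from -0.16 to 0.34. The ratio of Lgr5 to Lgr4 within a mouse, which does not depend on how a library is scaled, was 0.977 and 0.663 in the controls and 0.952 and 1.04 in the knockouts. These ratios overlapped between the genotypes. The third receptor of the family, Lgr6, named after its values were seen, was at or below 0.01 FPKM in all 4 mice.

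Rnf43 and Znrf3, both on chromosome 11, encode the paired membrane ligases that LGR-bound R-spondins inhibit. Rnf43 (from 87663087 to 87735539) was at 63.66 and 57.00 FPKM in Lgr5-CREPTWT mice and at 69.20 and 76.31 FPKM in Lgr5-CREPTKO mice. Both knockout mice were above both controls, by a log2 fold change of 0.27 (SE 0.0926, adjusted p = 0.167, limma). Znrf3 (from 5276329 to 5444847) was at 7.77 and 6.95 FPKM in Lgr5-CREPTWT mice and at 8.37 and 7.94 FPKM in Lgr5-CREPTKO mice. These values did not overlap either, although only 0.17 FPKM lay between the higher control and the lower knockout, and the log2 fold change was 0.14 (SE 0.107, adjusted p = 0.468, limma). Rnf43 was therefore the more abundant of the pair in each mouse, with a ratio of Rnf43 to Znrf3 of 8.19 and 8.20 in the controls and of 8.27 and 9.61 in the knockouts.

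Axin2, a scaffold of the complex that degrades β-catenin and the most widely used Wnt target gene, came nearest to the threshold. It lies on chromosome 11 from 108917828 to 108950783. Axin2 was at 111.4 and 101.6 FPKM in Lgr5-CREPTWT mice and at 141.1 and 146.0 FPKM in Lgr5-CREPTKO mice. The gap between the genotypes was larger than the gap within either of them. Relative to the mean of the controls, the knockout mice were at 132.5% and 137.1%, and the log2 fold change was 0.43 (SE 0.0771, adjusted p = 0.0601, limma), with a 95% interval from 0.23 to 0.63. Among all genes tested, 5.80% had a larger log2 fold change. The call depended on the scaling of the libraries: when each library was scaled to the same FPKM total, the adjusted p was 0.0493 (log2 fold change 0.51), and over all 13 alternatives it ran from 0.0493 to 0.312. The span of Gm11670, a gene annotated antisense to Axin2 that is not in the table, crosses at least 1 exon of Axin2.

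Nkd1, on chromosome 8 from 88521342 to 88594887, encodes a cytoplasmic inhibitor that binds Dishevelled. Its values were 3.17 and 3.01 FPKM in Lgr5-CREPTWT mice and 3.10 and 3.02 FPKM in Lgr5-CREPTKO mice. The knockout values lay between those of the controls (log2 fold change -0.01, SE 0.130, adjusted p = 0.968, limma). Its 95% interval ran from -0.35 to 0.32, so a change of the size seen in Axin2 lay outside it, while one of the size seen in Rnf43 lay inside. The difference between Axin2 and Nkd1, both feedback inhibitors, was not tested.

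Tnfrsf19, also called Troy, encodes a receptor of the TNF receptor family that is found on crypt base columnar cells and is a Wnt target. It lies on the minus strand of chromosome 14 from 60963834 to 61046855. Tnfrsf19 was at 17.35 and 19.58 FPKM in Lgr5-CREPTWT mice and at 18.51 and 19.49 FPKM in Lgr5-CREPTKO mice. Both knockout values fell inside the range of the controls, and the log2 fold change was 0.04 (SE 0.0949, adjusted p = 0.829, limma). The span of a non-coding gene on the opposite strand, Gm41168, also not in the table, crosses at least 1 exon of Tnfrsf19.

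Ascl2, the basic helix-loop-helix factor of the crypt base that acts with β-catenin on stem cell genes, lies on the minus strand of chromosome 7 from 142966822 to 142969264. Ascl2 was at 34.57 and 37.54 FPKM in Lgr5-CREPTWT mice and at 43.13 and 46.94 FPKM in Lgr5-CREPTKO mice. The genotypes did not overlap, with means of 36.1 ± 2.10 and 45.0 ± 2.69 FPKM (SD, n = 2 each) and a log2 fold change of 0.32 (SE 0.0853, adjusted p = 0.113, limma). The 95% interval was from 0.10 to 0.54. The ratio of Ascl2 to Lgr5 was 0.725 and 0.996 in the controls and 0.829 and 0.781 in the knockouts, so the knockout ratios lay between those of the controls.

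Myc, on chromosome 15 from 61985341 to 61990361, encodes a transcription factor of cell growth. Its values were 74.70 and 91.01 FPKM in Lgr5-CREPTWT mice and 101.6 and 109.4 FPKM in Lgr5-CREPTKO mice. Both knockout mice were above both controls, by a log2 fold change of 0.35 (SE 0.115, adjusted p = 0.151, limma). Sox9, on chromosome 11 from 112782210 to 112787757, encodes a factor of crypt base, Paneth, enteroendocrine and tuft cells. Its standard error was the smallest of the 10. Its values were 42.38 and 41.61 FPKM in Lgr5-CREPTWT mice and 39.74 and 41.63 FPKM in Lgr5-CREPTKO mice. The log2 fold change of Sox9 was -0.05 (SE 0.0702, adjusted p = 0.740, limma), with a 95% interval from -0.23 to 0.13.

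**Figure D2:**
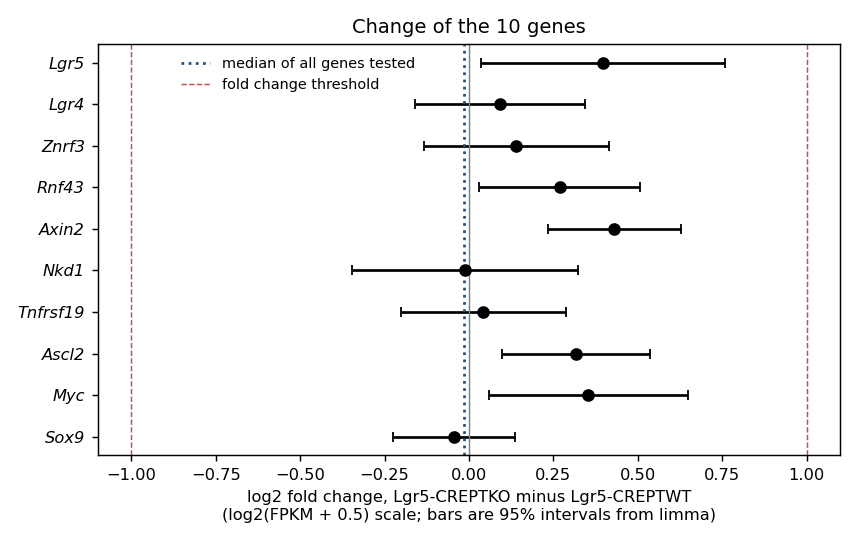
Log2 fold change of each gene (x axis, Lgr5-CREPTKO minus Lgr5-CREPTWT on the log2(FPKM + 0.5) scale) with its 95% interval from limma. The intervals of Lgr5, Rnf43, Axin2, Ascl2 and Myc lay above 0 before adjustment over all genes, and all 10 lay inside the dashed lines at -1 and 1.

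The direction of a change near 0 can depend on how the libraries are made comparable, as it did for Nkd1 and Sox9. The Lgr5-CREPTKO libraries had the lower FPKM totals, and scaling all 4 to the same total moved the median of all genes from -0.01 to 0.06 and that of the 10 genes from 0.20 to 0.28. Under that scaling and under quantile normalization all 10 genes had positive log2 fold changes, against 8 in the main analysis, with Nkd1 and Sox9 changing sign. Lgr5, Znrf3, Rnf43, Axin2, Ascl2 and Myc were higher in Lgr5-CREPTKO cells under all 13 alternatives. Their genotypes did not overlap, so leaving out a mouse or changing the pseudocount could not reverse them. The filters, the trend and the block leave a log2 fold change as it is. Each rescaling raised the median of all genes, to 0.06 with equal totals, 0.01 with equal medians and 0.035 with quantile normalization. A shift the other way was not tried, so the 13 alternatives say little about the direction of these genes.

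**Figure D3:**
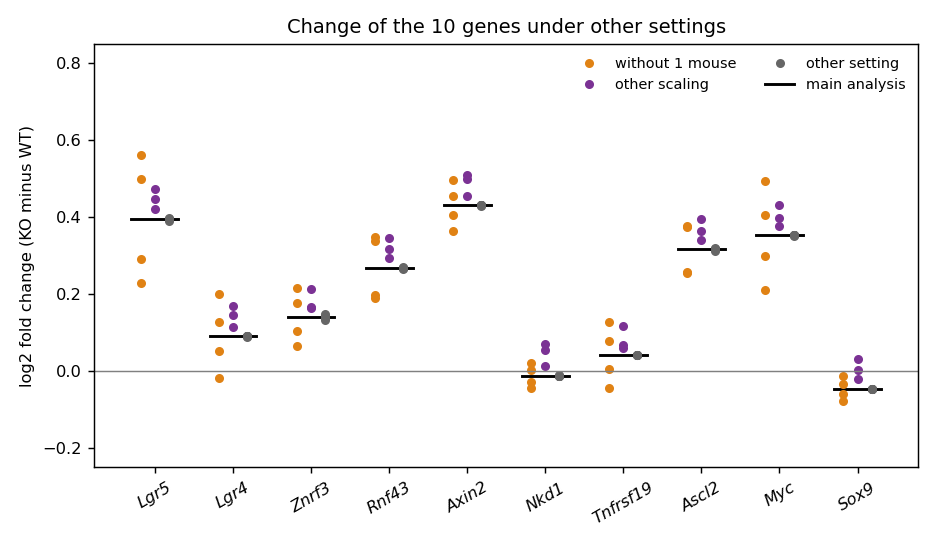
Log2 fold change of each gene (y axis, Lgr5-CREPTKO minus Lgr5-CREPTWT) in the main analysis (black lines) and under 13 alternatives, of which 4 leave out 1 mouse, 3 rescale the libraries and 6 change another setting. Axin2 stayed between 0.36 and 0.51 while Lgr5 moved between 0.23 and 0.56.

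The start sites of 6 of the 10 genes are in RefSeq's promoter table for GRCm38.p6 (Lgr4, Ascl2, Nkd1, Rnf43, Axin2 and Tnfrsf19; the other 4, Lgr5, Znrf3, Myc and Sox9, are named only), in 8 windows of 300 bases that run from 250 bases before a start site to 50 after it. These were searched on both strands for the core that TCF and LEF factors bind, written here as CTTTGNN with each N an A or a T. It was found in 1 of the 8 windows, that of the second start site of Tnfrsf19, and in 16.9% of all 32851 windows. Windows of the 2 genes with the smallest adjusted p, Axin2 and Ascl2, are given for their base composition, G and C making up 70% and 67% of the bases, and that of Tnfrsf19 for the match, which is in capitals and reads on the reverse strand 202 bases before the start. The Axin2 window is chr11:108920099-108920398 on the plus strand, that of Ascl2 chr7:142969215-142969514 on the minus strand and that of Tnfrsf19 chr14:61037938-61038237 on the minus strand, each written 5′ to 3′ along the gene.
Axin2: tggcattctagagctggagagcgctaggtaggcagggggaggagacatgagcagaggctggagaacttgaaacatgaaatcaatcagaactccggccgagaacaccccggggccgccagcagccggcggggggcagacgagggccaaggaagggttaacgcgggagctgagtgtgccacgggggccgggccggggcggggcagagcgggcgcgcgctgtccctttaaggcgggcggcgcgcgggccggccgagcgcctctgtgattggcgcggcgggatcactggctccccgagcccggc
Ascl2: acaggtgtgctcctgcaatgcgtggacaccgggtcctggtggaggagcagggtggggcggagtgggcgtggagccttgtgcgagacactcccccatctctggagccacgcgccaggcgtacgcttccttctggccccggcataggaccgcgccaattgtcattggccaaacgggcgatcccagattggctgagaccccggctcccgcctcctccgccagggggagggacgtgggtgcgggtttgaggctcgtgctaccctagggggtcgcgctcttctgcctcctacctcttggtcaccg
Tnfrsf19: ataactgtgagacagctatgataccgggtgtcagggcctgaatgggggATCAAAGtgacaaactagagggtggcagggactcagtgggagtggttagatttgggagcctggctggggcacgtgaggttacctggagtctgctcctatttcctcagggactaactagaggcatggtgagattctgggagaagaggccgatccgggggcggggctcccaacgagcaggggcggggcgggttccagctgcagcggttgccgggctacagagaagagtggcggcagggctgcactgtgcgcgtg

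A match of these letters is a description of the sequence and not a binding site, and a window without one says only that the letters are not in those 300 bases. The windows of Axin2 and Nkd1 lie inside the gene spans given above, so the outermost start of either gene was not searched. Tnfrsf19, with the match, had overlapping genotypes. Of the 5 genes whose windows held no match, Lgr4 and Nkd1 overlapped. Ascl2, Rnf43 and Axin2 were above without overlap, as 25.6% of all genes were. With a match in 1 of 8 windows, a relation between match and change was not tested.

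Other genes of the pathway were counted in 4 lists of 80 genes, of which 72 were in the table and 38 were tested. By limma none of the 38 passed an adjusted p of 0.05 in either direction. Their median log2 fold change was 0.14, and the Lgr5-CREPTKO values were both above the controls in 18 and both below in 6, where over all genes they were in 25.6% and 31.0%. Over all genes 3.08% passed the adjusted p, and the median was -0.01.

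Of 23 Wnt ligands and R-spondins, 18 were in the table and 4 were tested, since the rest were below a mean of 0.5 FPKM. Wnt3, the ligand of Paneth cells, was at 1.62 and 2.27 FPKM in Lgr5-CREPTWT mice and at 1.21 and 0.99 FPKM in Lgr5-CREPTKO mice (log2 fold change -0.60, adjusted p = 0.183, limma), and Wnt5b and Wnt4 had log2 fold changes of 0.08 and -0.02. Of 16 receptors, 11 were tested, with 6 above without overlap and 2 below (25.6% and 31.0% over all genes). Lrp5, a co-receptor of Frizzled, was at 31.73 and 31.25 FPKM in Lgr5-CREPTWT mice and at 43.80 and 40.00 FPKM in Lgr5-CREPTKO mice (log2 fold change 0.40, adjusted p = 0.0673, limma). Fzd5 and Ryk, the next most abundant, had log2 fold changes of 0.08 and 0.17.

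Of 21 other Wnt inhibitors, 5 were tested, with 3 above without overlap and 0 below (25.6% and 31.0% over all genes). All 5 log2 fold changes were above 0, from 0.0065 to 0.61, with a median of 0.15. Sfrp5, a secreted inhibitor, differed most of the 5 between the control mice, at 41.12 and 19.51 FPKM, and was at 27.84 and 35.37 FPKM in Lgr5-CREPTKO mice. Axin1, the constitutive counterpart of Axin2, had a log2 fold change of 0.15 (adjusted p = 0.264, limma), and Kremen1, a receptor of Dickkopf proteins, one of 0.25. Of 20 other Wnt targets, 18 were tested, with 9 above without overlap and 3 below (25.6% and 31.0% over all genes) and a median of 0.15. The most abundant were Slc12a2 (log2 fold change 0.44, adjusted p = 0.0811, limma), Cdca7 (0.14) and Smoc2 (0.17). Ccnd1, the gene of cyclin D1, was singled out after its values were seen. It was at 56.28 and 52.04 FPKM in Lgr5-CREPTWT mice and at 80.81 and 100.2 FPKM in Lgr5-CREPTKO mice, the largest log2 fold change of the 38 genes (0.73, adjusted p = 0.0553, limma).

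**Figure D4:**
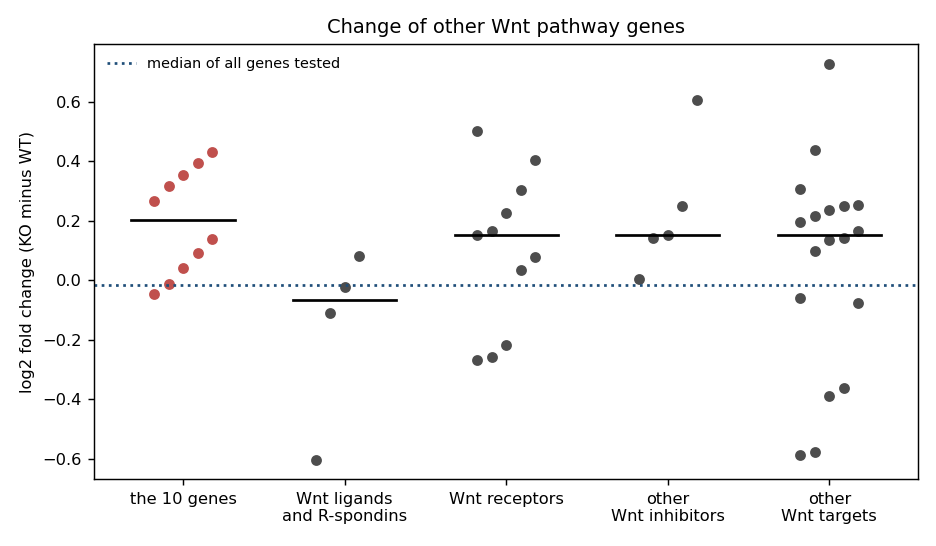
Log2 fold change (y axis, Lgr5-CREPTKO minus Lgr5-CREPTWT) of the 10 genes and of the tested genes in 4 other Wnt pathway lists, 1 point per gene, with black lines at the medians. Horizontal spread only separates the points; the medians were 0.20 for the 10 genes, -0.07 for ligands and 0.15 for each of receptors, inhibitors and targets.

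For Lgr5 and Ascl2, the genes with the most similar profile over the 4 mice were sought among the 6896 other genes that averaged 10 FPKM or more, by the Euclidean distance of centred log2 values. Clybl, Cited4 and Fpgs were nearest to Lgr5, at distances of 0.0258, 0.0364 and 0.0489, and 130 genes were within 0.2. Sidt2, Pxn and Casz1 were nearest to Ascl2, at 0.0405, 0.0417 and 0.0426, with 666 genes within 0.2. With 4 mice many genes share such a profile.

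Markers of other cell types differed between the genotypes in the same libraries. The 8 enteroendocrine markers summed to 194.1 and 287.5 FPKM in Lgr5-CREPTWT mice and to 65.4 and 72.1 FPKM in Lgr5-CREPTKO mice, with all 8 lower and 4 past an adjusted p of 0.05 by limma. The 7 goblet cell markers summed to 1465 and 2441 FPKM against 802.3 and 935.8 FPKM, with all 7 lower and 1 past it, and the 6 tuft cell markers to 17.2 and 33.9 FPKM against 14.4 and 5.87 FPKM, with none of the 4 tested past it. Over all genes tested, 2.67% were lower past that adjusted p. None of these markers was at 0 in all mice. The 7 Paneth cell markers summed to 1414 and 1022 FPKM in the controls and to 842.2 and 2504 FPKM in the knockouts, so that Lgr5-CREPTKO mouse 2 stood apart from the other 3. The 6 enterocyte markers, at 367.4 and 482.7 FPKM against 299.2 and 478.1 FPKM, the 5 cycling markers, at 481.4 and 418.4 FPKM against 473.6 and 402.5 FPKM, and the 5 immune markers, at 8.54 and 8.93 FPKM against 4.72 and 9.43 FPKM, overlapped. Of the 10 genes, those that were higher in Lgr5-CREPTKO mice moved opposite to the enteroendocrine, goblet and tuft markers, whose part in these values was not tested. In RNA from a pool of sorted cells, a changed share of a cell type and a changed level per cell cannot be told apart.

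**Figure D5:**
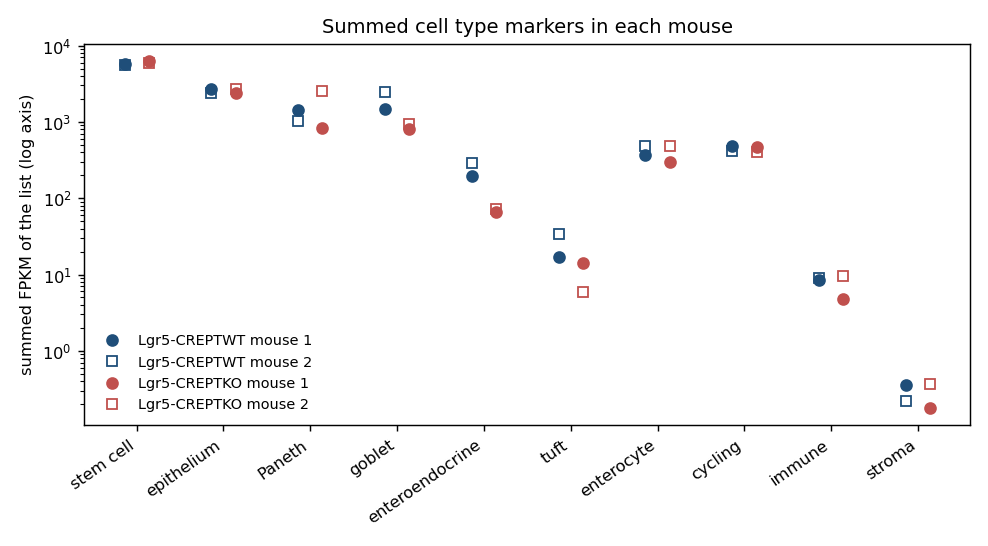
Summed FPKM (log axis) of each marker list in each of the 4 mice. The genotypes did not overlap in the enteroendocrine, goblet and tuft lists, nor in the stem cell list. The stem cell list was higher in Lgr5-CREPTKO mice (6223 and 5991 FPKM against 5761 and 5556 FPKM). Its 5 genes include Lgr5 and Ascl2, and also Slc12a2 and Smoc2, which are among the other Wnt targets as well. Olfm4, at 4932 to 5351 FPKM, made up most of each sum and had a log2 fold change of 0.07 (adjusted p = 0.685, limma).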

How the data were processed

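RNA of sorted Lgr5-GFP high cells was sequenced from 2 mice per genotype on a BGISEQ-500. The authors deposited 1 table of FPKM values, 1 column per mouse. By the study's methods, Bowtie2 aligned the reads to GRCm38.p6 transcripts and RSEM estimated expression, and the submitters' notes also name HISAT. FPKM divides by library size, which ties each gene to all others, and the count model of the study could not be run on it. Columns were matched to samples by title.

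Values were taken as log2(FPKM + 0.5), which understates changes of low genes, and genes averaging 0.5 FPKM or more over the 4 mice were kept. limma 3.58.1 in R 4.3.3 (lmFit, eBayes with trend) compared the genotypes over 12621 genes with Benjamini-Hochberg adjustment, and the study's threshold (adjusted p below 0.05, absolute log2 fold change above 1) was used. The fit was also run on simulated counts that gave all genes the same length and dispersion, which says little about its errors in these libraries. Pseudocounts of 0.1 and 1, other filters, 3 rescalings, no trend, a replicate block and each mouse left out were the alternatives. Same-numbered mice are different animals, and their deviations correlated at -0.03 across genes. Whether the 2 mice of a genotype were prepared separately is not given beyond the study's term biological replicates. Members, lists and tests were chosen with earlier results of these data known. The genes named are the 10 members, Rprd1b, called genes of each list or else its 3 most abundant tested genes, markers, and the 3 nearest profiles of Lgr5 and Ascl2, with Lgr6, Ccnd1 and genes that cross an exon of a named gene added after their values were seen. Coordinates and promoters are from RefSeq (GRCm38.p6), exons and overlaps from GENCODE M21. A crossing was judged by the whole span of the other gene, so its own exons need not overlap. Python 3.11.15 with pandas 2.3.3 was used.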

Additional observations from a re-analysis of the deposited data

How the results depend on the processing

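Of 130 values of the 10 genes under 13 alternatives each, 120 kept their direction and their side of the threshold, 1 passed it (Axin2, 0.51 with libraries scaled to the same total, which made 1 gene called of the 10 in place of 0) and 9 changed sign, all of them in genes within 0.10 of 0. These were Nkd1 at 0.0555 and Sox9 at 0.0319 with equal totals, Nkd1 at 0.0132 with equal medians, Nkd1 at 0.0697 and Sox9 at 0.0030 with quantile normalization, Lgr4, Nkd1 and Tnfrsf19 without Lgr5-CREPTWT mouse 1, and Nkd1 without Lgr5-CREPTKO mouse 2. With each mouse left out in turn Lgr4 ran from -0.0183 to 0.1998, Nkd1 from -0.0440 to 0.0203 and Tnfrsf19 from -0.0427 to 0.1271. No gene of the 10 passed both parts of the threshold under any alternative. Part of this tally was fixed by the settings. The filters, the trend and the block leave a log2 fold change as it is, so its direction could not differ there. In genes whose genotypes did not overlap, leaving out a mouse or changing the pseudocount could not reverse the direction either. Without the filter on low values no gene at all passed the adjusted p, so none of the 10 could. A fit that leaves 1 mouse in a genotype can say little about a call. Over all genes, 128 lower and 16 higher were called. Without the filter on low values 0 and 0 were, and without the intensity trend 4 and 0. Rprd1b kept its log2 fold change of -1.29 in both, with an adjusted p of 0.117 and 0.0623. Leaving out any of the 4 mice left 0 and 0 calls and moved Rprd1b between -1.36 and -1.23, with adjusted p from 0.144 to 0.305; the lone mouse of a genotype was assumed to vary like the other pair. With the replicate number as a block, 101 lower and 8 higher were called, and no call of the 10 genes or Rprd1b changed; the mice share only a number. FPKM without counts limits what can be said of the precision of low genes such as Nkd1.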
